A study of Mus musculus with 6 samples.

Results

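The genes described here are 36 genes of the lysosome, chosen as a list by name: glycosidases, proteases, sulfatases, lipid-handling proteins, membrane proteins and regulators. The list includes Glb1, which encodes the lysosomal beta-galactosidase behind the senescence-associated beta-galactosidase stain. All 36 were matched by symbol among the 27179 genes of the count table, and all 36 were among the 14855 genes that passed the low-count filter. RNA came from cancer-associated fibroblasts (CAFs) of 3 raGFP-Wnt1 mammary tumors. These are tumors of mice with an MMTV-Wnt1 transgene (FVB/NJ) crossed to a Pdgfra H2B-GFP reporter (C57BL/6, heterozygous), so both groups carry both alleles. GFP-expressing cells of each tumor were sorted into CD34 negative (CD34-) and CD34 positive (CD34+) fibroblasts, snap frozen, and sequenced as 6 bulk libraries, 3 per group. The Wnt1 transgene is driven by the mouse mammary tumor virus promoter, active in mammary epithelium, and the fibroblasts were selected by expression of the reporter at the Pdgfra locus. The age of the tumor-bearing mice is not given in the sources used here.

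Lysosomes are acidic organelles in which hydrolases break down protein, glycan and lipid delivered by endocytosis and autophagy. Soluble hydrolases reach them mostly through mannose-6-phosphate tags, and the transcription factors TFEB and TFE3 activate many of their genes by binding the CLEAR element, an extended E-box. Senescent cells often hold an enlarged lysosomal compartment, and in fibroblasts cathepsins also degrade collagen and other matrix proteins. In the comparison of CD34- with CD34+ CAFs, a positive log2 fold change stands for a higher level in the CD34- fraction.

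Libraries are named by fraction and tumor (negative library 1 is the CD34- fraction of tumor 1). They held 16238059 to 86609267 counts, and between 14314 and 19220 genes had at least 1 count. Negative library 3 had the fewest genes with counts, and its log2 CPM (counts relative to library size) correlated with those of the other libraries at 0.837 to 0.883. Cd34 itself was at 74.3 ± 30.2 CPM in CD34- and 948 ± 571 CPM in CD34+ CAFs (mean ± SD, n = 3, scaled by TMM as are all single-gene CPM here), and was lower in the CD34- library of every tumor. Because these are bulk samples, a lower share of cells that express a gene and less RNA of that gene per cell cannot be told apart.

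Together the 36 genes took 1.172%, 1.049% and 0.9905% of the counts in negative libraries 1 to 3, and 1.042%, 0.9241% and 0.9655% in positive libraries 1 to 3. The share was higher in the CD34- library of each pair, while the lowest CD34- value lay below the highest CD34+ value. Over the 36 genes the median log2 fold change was 0.21, against a median of -0.03 over all 14855 tested genes. Above 0 were 27 of the 36, and 7081 of all 14855 tested genes. Within tumors 1, 2 and 3 the median log2 ratio of the 36 genes was 0.27, 0.22 and 0.08. Without positive library 2 the median log2 fold change was 0.10, and across fits with a single library or tumor removed it lay between 0.10 and 0.27.

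In the limma-voom test with no term for the tumor, 0 of the 36 genes passed an adjusted p of 0.05 in either direction. The background was equally sparse, since 0.0202% of all tested genes passed as higher in CD34- CAFs and 0.101% as lower. At an unadjusted p under 0.05, 6 of the 36 were higher (7.23% of all tested genes) and 0 were lower (7.1%). The edgeR quasi-likelihood test also called 0, against 0% of all tested genes higher and 0.0606% lower, and at an unadjusted p under 0.05 it had 5 higher (6.61% of all tested genes) and 0 lower (5.88%). DESeq2 called 3 higher, against 2.44% of the genes to which it gave an adjusted p, and 0 lower, against 3.01%. The fractions were sorted in pairs from the same tumors, so the tumor was also fitted as a block. In that fit 6 of the 36 genes passed as higher in CD34- CAFs, against 4.32% of all tested genes, and 0 passed as lower, against 4.25%. The 6 were the proteases Ctsd, Ctsa, Tpp1 and Ctsf and the glycosidases Gaa and Hexa. With the block, edgeR called 3 of the 36 higher (1.76% of all tested genes) and DESeq2 called 8 (6.12% of those with an adjusted p). Limma with an estimated correlation within tumors, the tumor as a random effect, called 3 (2.36% of all tested genes). These 3 were Ctsd, Gaa and Tpp1 in both edgeR with the block and limma with the random effect. Without tumor 3, whose CD34- library stood apart, the blocked fit called 5 of the 36 higher (5.69% of all tested genes), with a log2 fold change of 0.83 for Ctsd, 0.85 for Gaa and 0.65 for Tpp1. Ctsa was the gene lost in that fit. Without tumor 1 it called 5 (4.11%) and without tumor 2 it called 3 (2.9%), and Ctsd, Gaa and Tpp1 passed in each.

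Counted by tumor without a test, 17 of the 36 genes were higher in the CD34- library in 3 of 3 tumors, where 22.8% of all tested genes were. Ctsh, Ctsl and Npc2 were lower in 3 of 3, where 23.4% of all tested genes were. For 8 genes (Gaa, Man2b1, Ctsa, Ctsd, Tpp1, Sgsh, Scarb2 and Mcoln1) every CD34- library lay above every CD34+ library, against 10.4% of all tested genes. No member had the groups apart in the other direction, against 10%.

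**Figure D1:**
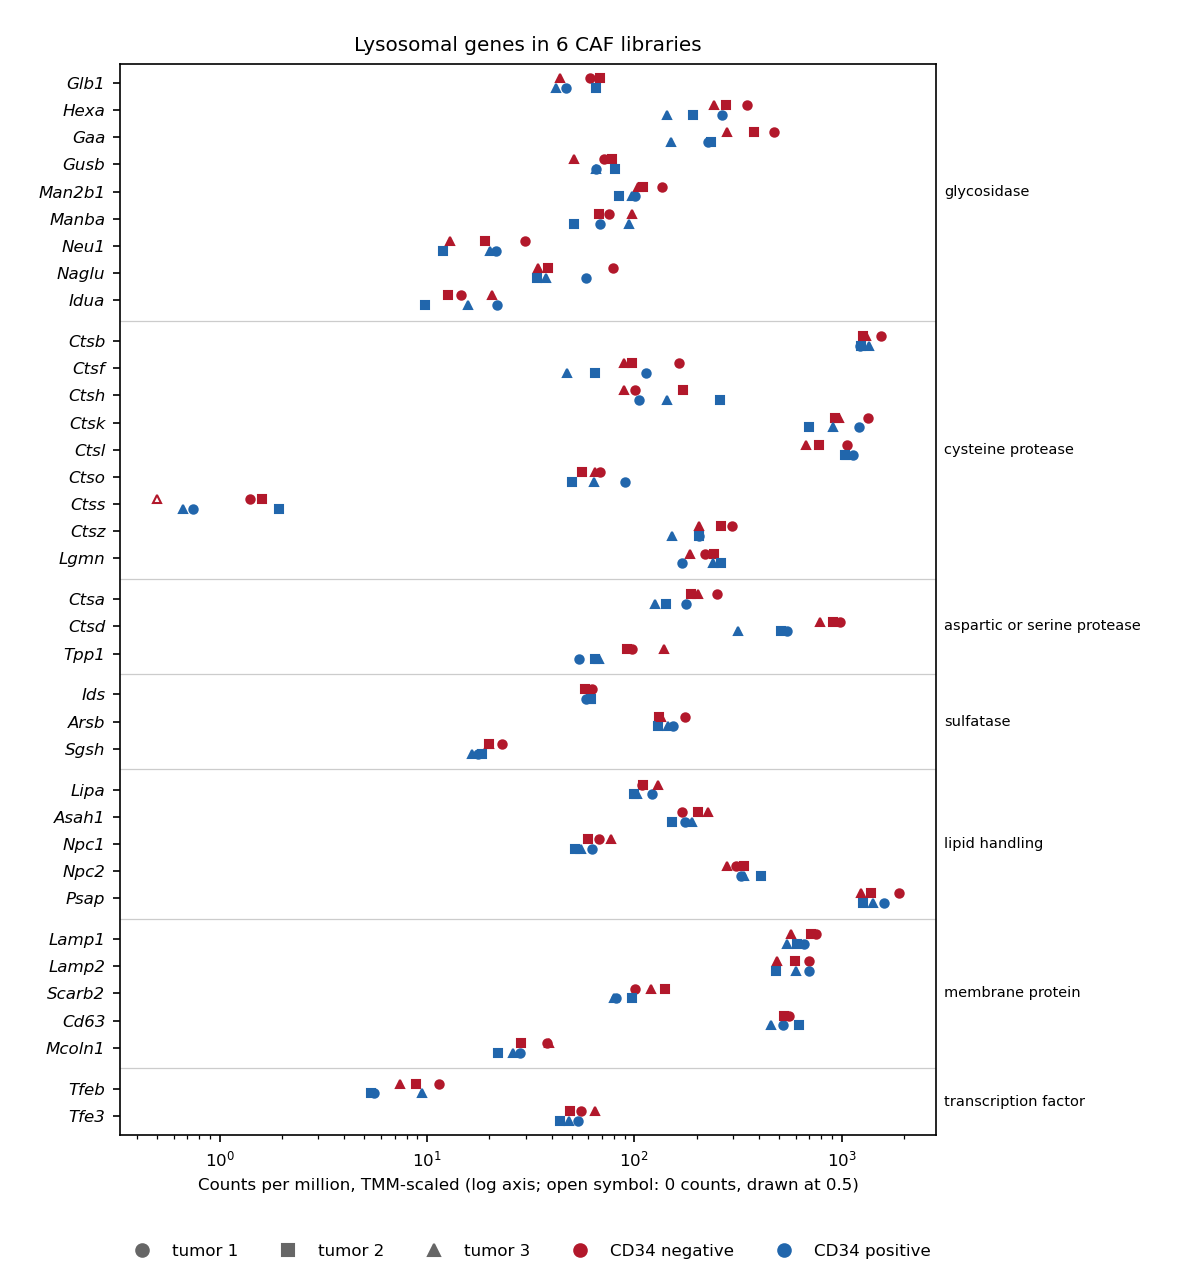
Level of each of the 36 lysosomal genes in the 6 libraries, in TMM-scaled CPM on a log axis, grouped by role (color, CD34 fraction; symbol shape, tumor). CD34- libraries lie to the right of all CD34+ libraries for Gaa, Ctsd and Tpp1, and the fractions overlap for Glb1, Lamp2 and Ids.

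Promoter sequences of RefSeq (GRCm38.p6, 250 bases before to 50 after the start site) were matched by NCBI gene number for 32 of the 36 genes. They were searched on both strands for CACGTG, the E-box core, and for TCACGTGA, a palindrome at the center of the CLEAR element that contains CACGTG. TCACGTGA was found for 3 of the 32 genes (Ctsa, Ctsd and Mcoln1, 9.38%), against 1.12% of all 27025 genes with a promoter and 2.09% of those tested. CACGTG was found for 11 of the 32 (34.4%), against 8.09% of all genes with a promoter and 11.4% of those tested. These 11 were Ctsa, Ctsd, Ctsf, Ctsl, Gaa, Glb1, Lamp1, Lgmn, Mcoln1, Naglu and Sgsh. The shares describe letters in this window and carry no test, and they do not show that a factor binds there.

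The windows printed are the 3 with TCACGTGA, those of Gaa and Glb1, and that of Lamp1, which held the most matches (4). Each is given 5′ to 3′ on the strand of its gene, in GRCm38.p6 coordinates, with the motif in capitals.
Ctsd, chr7:142387908-142387937, minus strand: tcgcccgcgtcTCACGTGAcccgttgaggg
Ctsa, chr2:164833743-164833772, plus strand: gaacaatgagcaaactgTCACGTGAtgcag
Mcoln1, chr8:3500462-3500491, plus strand: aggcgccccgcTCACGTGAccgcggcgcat
Gaa, chr11:119267811-119267840, plus strand: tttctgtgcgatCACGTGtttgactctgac
Glb1, chr9:114401018-114401047, plus strand: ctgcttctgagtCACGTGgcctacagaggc
Lamp1, chr8:13159061-13159160, plus strand: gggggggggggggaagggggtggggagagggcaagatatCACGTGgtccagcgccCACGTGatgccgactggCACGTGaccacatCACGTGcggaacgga
The first bases of the motifs lie 99 bases before the start site in Ctsd (at -99), at -13 in Ctsa, at -46 in Mcoln1, at -140 in Gaa and at -48 in Glb1. In Lamp1 they lie at -61, -45, -28 and -15. Ctsa has another TCACGTGA at 5, outside the printed window. Also outside the printed windows, Ctsd has a CACGTG at -245 and Mcoln1 has a CACGTG at -71. The Ctsd, Ctsa and Mcoln1 windows lie within exons of other transcripts of the same genes in GENCODE. The choice of Gaa and Glb1 followed no count of matches, and other genes with CACGTG, such as Ctsf, are not printed. Of the 11 genes with CACGTG, Ctsd, Ctsa, Gaa and Ctsf passed as higher with the tumor block, against 4.32% of all tested genes. The others of the 11 did not pass, while Tpp1 and Hexa passed without a match. A link between motif and call was not tested.

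All 3 aspartic or serine proteases were higher in the CD34- library of every tumor, without overlap between the groups, and all 3 passed with the block. Of all tested genes, 22.8% were higher in 3 of 3 tumors, 10.4% had no overlap in this direction and 4.32% passed as higher. Ctsd and Tpp1 also passed with an estimated correlation (adjusted p = 0.0239 and 0.0321), and Ctsa did not (adjusted p = 0.0802). Ctsd, the aspartic protease cathepsin D (gene 13033, chromosome 7, 142375910 to 142387827, protein-coding, GRCm38.p6), was at 988, 913 and 783 CPM in negative libraries 1 to 3. In positive libraries 1 to 3 it was at 547, 509 and 317 CPM. The lowest CD34- library was well above the highest CD34+ library, and positive library 3 was the lowest of the 6. The log2 fold change was 1.00 ± 0.25 (SE, adjusted p = 0.142) without the block and 1.00 ± 0.14 with it (adjusted p = 0.00331), a 2.00-fold higher level (95% interval 1.61 to 2.48 with the block). Log2 ratios within tumors 1, 2 and 3 were 0.85, 0.84 and 1.30.

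Tpp1, the serine protease that removes tripeptides from protein ends and is mutated in a neuronal ceroid lipofuscinosis, was at 97.6, 92.8 and 140 CPM in negative libraries 1 to 3. It was at 54.0, 64.4 and 67.7 CPM in positive libraries 1 to 3. The groups did not overlap, and negative library 3 was the highest. Its log2 fold change was 0.79 ± 0.21 without the block (adjusted p = 0.151) and 0.79 ± 0.15 with it (adjusted p = 0.0126), a 1.73-fold difference (95% interval 1.37 to 2.19).

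Ctsa, the serine carboxypeptidase that protects beta-galactosidase and neuraminidase in a lysosomal complex, was at 251, 189 and 203 CPM in negative libraries 1 to 3 and at 178, 143 and 126 CPM in the positive ones. The lowest CD34- value was close to the highest CD34+ value, from tumor 1, without overlap. The log2 fold change was 0.53 ± 0.20 without the block (adjusted p = 0.292) and 0.53 ± 0.13 with it (adjusted p = 0.0337). The call was lost in the blocked fit without any of the 3 tumors (adjusted p 0.057, 0.147 and 0.0518 without tumors 1, 2 and 3). Ctsa overlaps Pltp, which had counts equal to 37.7% of those of Ctsa, and the counting mode for overlapping genes is not given in the sources used here.

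Among the 9 glycosidases, which remove sugars from glycans and glycolipids, 8 were above 0 without the block, as were 7081 of 14855 tested genes. With the block 2 passed as higher, against 4.32% of all tested genes. With an estimated correlation 1 of these 2 glycosidases passed, Gaa (adjusted p = 0.033), while Hexa did not (adjusted p = 0.121). Gaa, the acid alpha-glucosidase that degrades glycogen in lysosomes (gene 14387, chromosome 11, 119267963 to 119285458), was at 474, 377 and 281 CPM in negative libraries 1 to 3. Positive libraries 1 to 3 held 228, 235 and 151 CPM. In both fractions tumor 3 gave the lowest value, and all CD34- libraries lay above all CD34+ libraries. The log2 fold change was 0.88 ± 0.26 without the block (adjusted p = 0.184) and 0.87 ± 0.13 with it (adjusted p = 0.00457), a 1.83-fold higher level (95% interval of the log2 value 0.58 to 1.17).

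Hexa, the alpha subunit of beta-hexosaminidase and the glycosidase with the highest level per length, was at 351, 276 and 241 CPM in negative libraries 1 to 3. It was at 264, 192 and 143 CPM in positive libraries 1 to 3. The groups overlapped between tumors, since positive library 1 was above negative library 3, but within every tumor the CD34- library was higher. Its log2 fold change was 0.55 ± 0.26 without the block (adjusted p = 0.379) and 0.56 ± 0.13 with it (adjusted p = 0.0266), and the blocked call was lost without tumor 2 (adjusted p = 0.155).

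Glb1, the beta-galactosidase gene (gene 12091, chromosome 9, 114401078 to 114474379), did not pass in any fit. It was at 61.0, 68.4 and 43.7 CPM in negative libraries 1 to 3 and at 46.7, 65.7 and 42.1 CPM in positive libraries 1 to 3. The ranges of the groups overlapped over most of their width, and tumor 3 was lowest in both. Within tumors 1, 2 and 3 the log2 ratio was 0.38, 0.06 and 0.06. The log2 fold change was 0.14 ± 0.25 (95% interval -0.43 to 0.70, adjusted p = 0.838) without the block and 0.15 ± 0.15 with it (-0.18 to 0.48, adjusted p = 0.622), a fold between 0.881 and 1.39 in the blocked fit. Glb1 overlaps Tmppe, which had counts equal to 13% of those of Glb1. Of its 3 homologs only Glb1l had enough counts to be tested, at a log2 fold change of -0.07 ± 0.24 (adjusted p = 0.919). Glb1l2 had at most 11 counts in a library and Glb1l3 at most 3.

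The other 6 glycosidases did not pass. In the blocked fit the log2 fold change was 0.31 ± 0.13 for the alpha-mannosidase Man2b1 (adjusted p = 0.204), 0.25 ± 0.26 for the neuraminidase Neu1, and 0.20 ± 0.14 for the beta-mannosidase Manba. The others were the heparan sulfate glucosaminidase Naglu at 0.18 ± 0.16, the iduronidase Idua at 0.12 ± 0.25 and the beta-glucuronidase Gusb at -0.09 ± 0.15. Man2b1 was higher in the CD34- library of all 3 tumors, while the within-tumor ratios of Gusb, Neu1, Naglu and Idua had both signs. Idua overlaps Dgkq, whose counts equaled 88.3% of those of Idua.

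**Figure D2:**
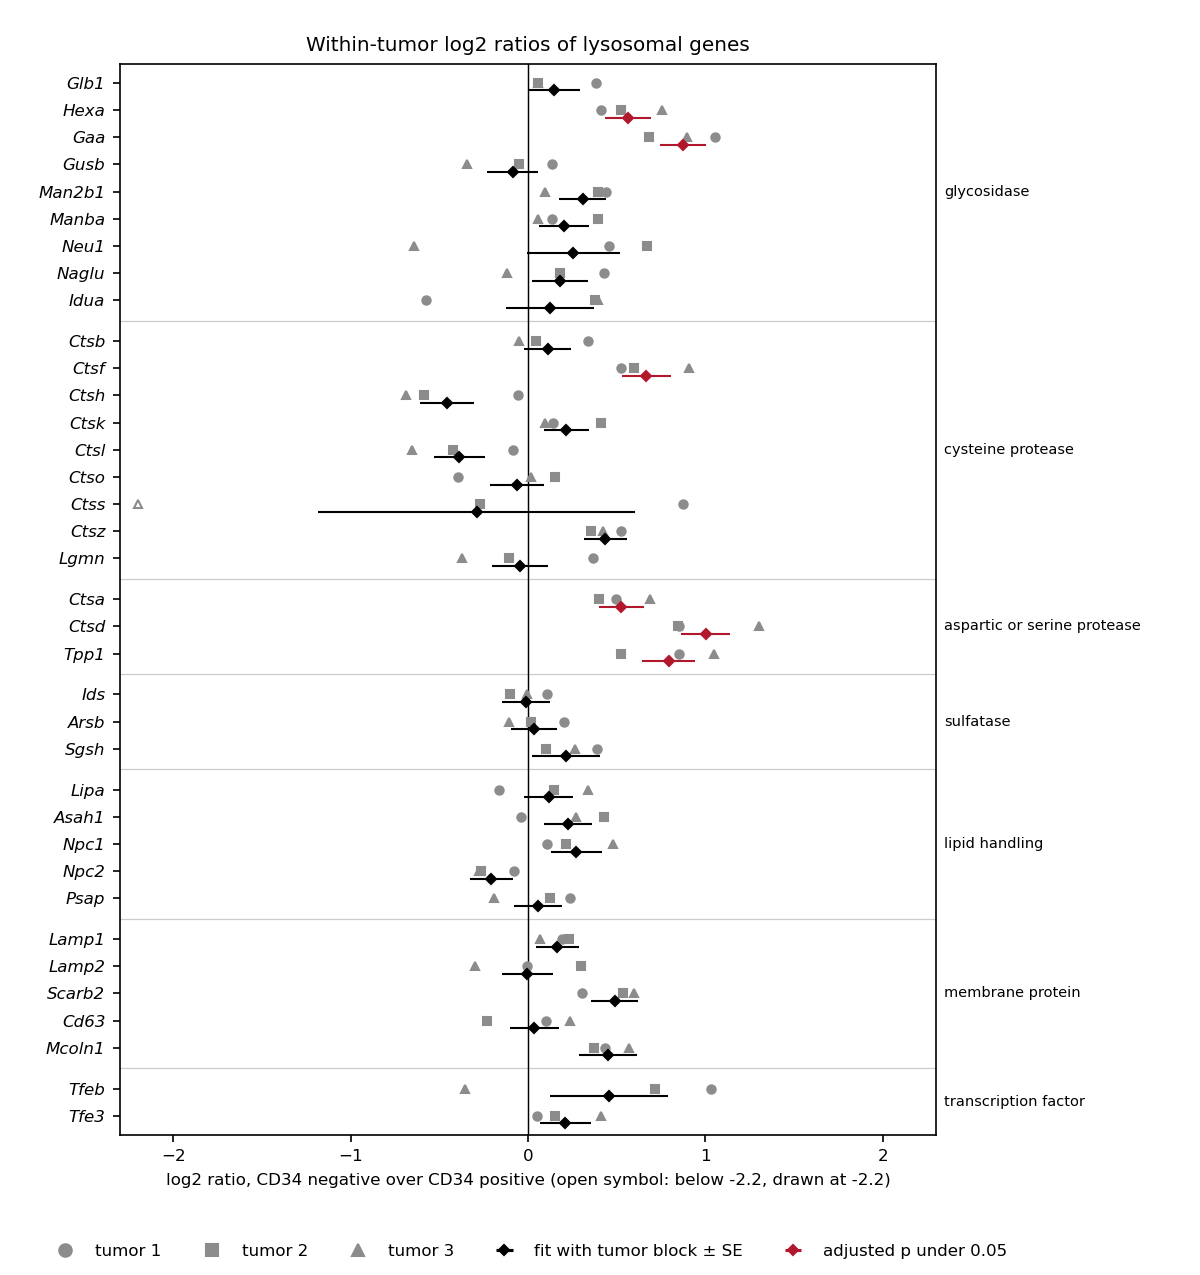
Log2 ratio of CD34- over CD34+ within each tumor (grey symbols) for the 36 genes by role, with the fitted log2 fold change ± SE of limma-voom with the tumor as a block (diamonds, red where the adjusted p is under 0.05). The 6 red genes run from 0.53 for Ctsa to 1.00 for Ctsd, while Ctsh and Ctsl lie at -0.46 and -0.39.

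The 9 cysteine proteases were split, with 4 above 0 and 5 below 0 and a median log2 fold change of -0.02. Of all 14855 tested genes 7081 were above 0 and 7774 below 0. Ctsf, the cysteine cathepsin F, was at 165, 97.6 and 89.0 CPM in negative libraries 1 to 3 and at 115, 64.6 and 47.3 CPM in positive libraries 1 to 3. Tumor 1 was the highest in both fractions and the groups overlapped, but each tumor was higher in its CD34- library. The log2 fold change was 0.72 ± 0.34 without the block (adjusted p = 0.387) and 0.67 ± 0.14 with it (adjusted p = 0.0185), and the blocked call was lost without tumor 2 (adjusted p = 0.071) and with an estimated correlation (adjusted p = 0.12).

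Ctsk, the collagen-degrading cathepsin K, had the highest level per length of all 36 genes, with a mean of 729 RPKM (CPM divided by gene length in kilobases) in CD34- and 634 RPKM in CD34+ CAFs. By library it was at 1340, 926 and 974 CPM in negative libraries 1 to 3 and at 1214, 695 and 911 CPM in positive libraries 1 to 3. The spread between tumors was wider than the gap between fractions, and the log2 fold change with the block was 0.22 ± 0.13 (adjusted p = 0.364). Ctsz, the carboxypeptidase cathepsin Z, was above 0 in each tumor (0.53, 0.36 and 0.43) but missed the threshold with the block, at 0.43 ± 0.12 (adjusted p = 0.0605). Without the block the adjusted p of Ctsz was 0.392. Ctsb, the broadly expressed cathepsin B, differed little between fractions (0.11 ± 0.13 with the block, adjusted p = 0.686).

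Ctsh and Ctsl had the lowest blocked fold changes among the 36, and both are given by library although the choice followed their values. Ctsh, the aminopeptidase cathepsin H, was at 101, 172 and 89.6 CPM in negative libraries 1 to 3 and at 105, 258 and 144 CPM in positive libraries 1 to 3. The fractions of tumor 1 were nearly equal, and those of tumors 2 and 3 were 0.59 and 0.69 log2 units apart. Its log2 fold change was -0.42 ± 0.36 without the block and -0.46 ± 0.15 with it (adjusted p = 0.105). Without tumor 1 the blocked value was -0.63, and it passed as lower in CD34- CAFs (adjusted p = 0.0256), as did 3.51% of all tested genes in that fit.

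Ctsl, the endopeptidase cathepsin L, was at 1068, 775 and 676 CPM in negative libraries 1 to 3, while positive libraries 1 to 3 lay close together at 1131, 1038 and 1065 CPM. Negative library 1 fell within the CD34+ range, and the other CD34- libraries lay below it. The log2 fold change with the block was -0.39 ± 0.14 (adjusted p = 0.138). Ctso and the asparaginyl endopeptidase Lgmn were near 0 (-0.06 ± 0.15 and -0.04 ± 0.16 with the block), with ratios of both signs over the tumors. Ctss, the cathepsin of antigen-presenting cells, was at 1.41, 1.59 and 0 CPM in negative libraries 1 to 3 and at 0.74, 1.93 and 0.67 CPM in positive libraries 1 to 3. Its log2 fold change was -1.75 ± 1.57 without the block and -0.29 ± 0.89 with it. The unblocked value turned to 0.21 without negative library 3, the library at 0 counts.

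None of the 3 sulfatases, which remove sulfate from glycosaminoglycans, passed without or with the block. Arsb, the sulfatase with the highest level per length, was at 176, 132 and 135 CPM in negative libraries 1 to 3 and at 153, 130 and 145 CPM in positive libraries 1 to 3. The groups overlapped, and its log2 fold change with the block was 0.03 ± 0.13 (adjusted p = 0.910). Ids, the iduronate sulfatase, was at 60.4 ± 2.56 CPM in CD34- and 60.4 ± 1.87 CPM in CD34+ CAFs (SD, n = 3), with a 95% interval of the blocked log2 fold change from -0.32 to 0.30. Sgsh, which desulfates heparan sulfate, was at 20.9 ± 1.87 and 17.6 ± 0.992 CPM without overlap, but its log2 fold change of 0.22 ± 0.19 did not pass (adjusted p = 0.569 with the block). It shares sequence and counts uncertainty with neighbors, since 20% of its 50-base words also occur in another gene of the table and the overlapping Slc26a11 had counts equal to 52.5% of its own.

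None of the 5 lipid-handling genes passed without or with the block. Psap, the precursor of the saposins that activate sphingolipid hydrolases, was the most abundant of them per length. It was at 1891, 1382 and 1247 CPM in negative libraries 1 to 3 and at 1604, 1268 and 1425 CPM in positive libraries 1 to 3, and tumor 3 went the other way from tumors 1 and 2. Its log2 fold change with the block was 0.05 ± 0.13 (adjusted p = 0.863). The cholesterol transporters had opposite signs, at 0.27 ± 0.14 for Npc1 (adjusted p = 0.301) and -0.21 ± 0.12 for Npc2 (adjusted p = 0.364), each with one sign in 3 of 3 tumors. The ceramidase Asah1 was at 0.22 ± 0.14 and the acid lipase Lipa at 0.12 ± 0.14, both lower in the CD34- library of tumor 1 only. Npc1 overlaps Rmc1, which had counts equal to 25.7% of those of Npc1, and Asah1 overlaps Frg1, with 11% of those of Asah1.

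The 5 lysosomal membrane proteins did not pass in limma without or with the block. Cd63, a tetraspanin of late endosomes and lysosomes, was at 560, 530 and 536 CPM in negative libraries 1 to 3. It was at 521, 624 and 455 CPM in positive libraries 1 to 3, a wider range that enclosed all CD34- values, and its log2 fold change with the block was 0.04 ± 0.14 (adjusted p = 0.910). Lamp1 and Lamp2, which coat the inner face of the lysosomal membrane, were at 0.16 ± 0.12 (adjusted p = 0.482) and -0.00 ± 0.14 (adjusted p = 0.993). Scarb2, the membrane receptor that carries beta-glucocerebrosidase to the lysosome, was at 0.49 ± 0.13 with the block and missed the threshold (adjusted p = 0.0525, and 0.303 without the block). Mcoln1, the calcium channel mucolipin 1, was at 0.45 ± 0.16 with the block (adjusted p = 0.135, and 0.324 without it). For both, the 3 CD34- libraries lay above the 3 CD34+ libraries, with 121 ± 19.9 against 86.1 ± 9.64 CPM for Scarb2 and 35.2 ± 5.70 against 25.4 ± 3.04 CPM for Mcoln1.

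The transcription factors of the list were measured at low to moderate levels. Tfe3, the more abundant per length, was at 55.3, 48.9 and 64.9 CPM in negative libraries 1 to 3 and at 53.3, 44.0 and 48.7 CPM in positive libraries 1 to 3. Its ratio was above 0 in each tumor, and the log2 fold change with the block was 0.21 ± 0.15 (adjusted p = 0.447). Tfeb was at 9.23 ± 2.04 CPM in CD34- and 6.81 ± 2.29 CPM in CD34+ CAFs, with within-tumor log2 ratios of 1.03, 0.72 and -0.35. Its log2 fold change of 0.46 ± 0.33 with the block had a 95% interval from -0.29 to 1.20 (adjusted p = 0.471).

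The other genes of the pathway came from lists written by role, of which 154 genes were in the table and 142 were tested. Their median log2 fold change was 0.15 without the block. In that fit 0 passed. At an unadjusted p under 0.05, 23 were higher and 6 lower, against 7.23% and 7.1% of all tested genes. EdgeR also called 0, with 21 higher and 6 lower at an unadjusted p under 0.05, against 6.61% and 5.88%. DESeq2 called 4 higher and 3 lower, beside the background of 2.44% and 3.01%. With the block 11 passed as higher and 3 as lower, against the 4.32% and 4.25% of all tested genes given above. With an estimated correlation the counts were 6 and 2, against 2.36% and 2.37% of all tested genes, and with edgeR and the block 4 and 2, against 1.76% and 2.11%.

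Of 35 further hydrolases and cofactors, 5 passed as higher and 2 as lower with the block, against 4.32% and 4.25% of all tested genes. With an estimated correlation 4 and 1 passed, against 2.36% and 2.37% of all tested genes. The largest increase was in Ctsc, the dipeptidyl peptidase that activates granule serine proteases, at 55.4, 113 and 138 CPM in negative libraries 1 to 3 and 19.7, 46.4 and 33.7 CPM in positive libraries 1 to 3. Its groups did not overlap, and the log2 fold change with the block was 1.58 ± 0.18 (adjusted p = 0.00154). Man2b2 (an alpha-mannosidase, 0.86 ± 0.16, adjusted p = 0.0111), Plbd2 (0.79 ± 0.14, adjusted p = 0.00934) and the alpha-fucosidase Fuca1 (0.66 ± 0.13, adjusted p = 0.0132) were next. The lower ones were the amidase Naaa, which hydrolyzes N-acylethanolamines, at -1.38 ± 0.31 (adjusted p = 0.0246, and 0.053 with an estimated correlation) and Epdr1 at -1.24 ± 0.15 (adjusted p = 0.00215). Epdr1 was at 32.0, 22.4 and 29.2 CPM in negative libraries 1 to 3 and 66.1, 54.5 and 75.6 CPM in positive libraries 1 to 3, so every CD34- library was below every CD34+ library.

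Hydrolase sorting delivers newly made enzymes to lysosomes. With the block 2 of its 17 genes were higher (4.32% of all tested genes) and 0 lower (4.25%), around a median of -0.01. They were the sorting receptor Sort1 (1.05 ± 0.25, adjusted p = 0.0313) and Nagpa, which uncovers the mannose-6-phosphate tag (0.95 ± 0.22, adjusted p = 0.0277). Both also passed with an estimated correlation (adjusted p = 0.044 and 0.0333), and neither passed in edgeR with the block (adjusted p = 0.096 and 0.052). Of 25 other membrane proteins and transporters only Ostm1, a partner of a chloride transporter, passed (0.74 ± 0.19, adjusted p = 0.0462). Of all tested genes 4.32% passed as higher. The Ostm1 call was lost with an estimated correlation (adjusted p = 0.0574). Of 19 autophagy genes, 2 passed as higher, against 4.32% of all tested genes. These 2 were the cargo receptor Sqstm1 (0.60 ± 0.12, adjusted p = 0.0176) and the kinase Ulk1 (0.59 ± 0.15, adjusted p = 0.0462). Both calls were lost with an estimated correlation (adjusted p = 0.0985 and 0.0746) and in edgeR with the block (adjusted p = 0.0783 and 0.0803).

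Among 4 cathepsin inhibitors, cystatin C (Cst3) was higher (0.66 ± 0.13, adjusted p = 0.0146) and Serpinb6a was lower (-0.86 ± 0.14, adjusted p = 0.00742). Of all tested genes 4.32% passed as higher and 4.25% as lower with the block. With an estimated correlation Serpinb6a passed (adjusted p = 0.0273) and Cst3 did not (adjusted p = 0.335). None of 22 subunits of the V-ATPase, the proton pump that acidifies the lysosome, passed with the block, with 3 higher and 2 lower at an unadjusted p under 0.05 (11.6% of all tested genes in each direction) and a median of 0.14. For 19 regulators of TFEB and lysosomal nutrient sensing the count was also 0, with 0 in either direction at an unadjusted p under 0.05 and a median of 0.10.

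**Figure D3:**
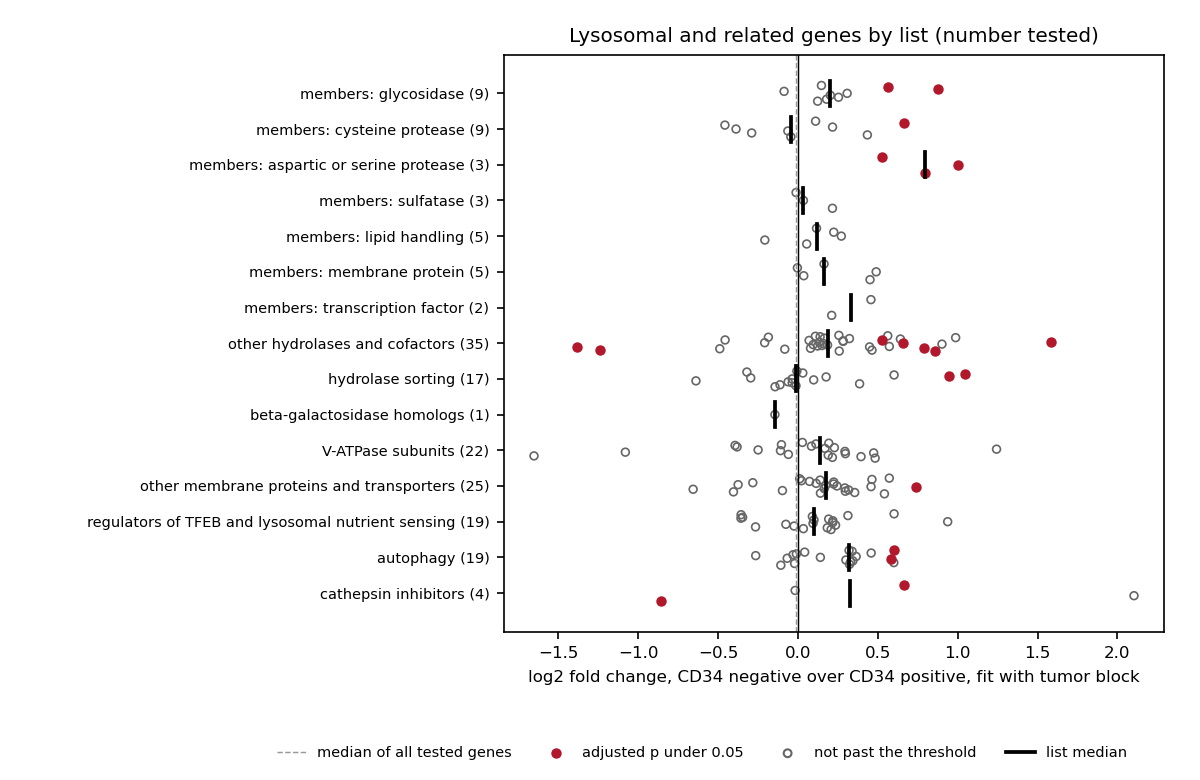
Log2 fold change (CD34- over CD34+, limma-voom with the tumor as a block) of each tested gene by role, with the number tested in parentheses, list medians as bars and genes with an adjusted p under 0.05 in red. All 3 aspartic or serine proteases of the 36 genes are red, V-ATPase subunits and TFEB regulators have none, and list medians lie between -0.14 and 0.79.

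Markers of other cell types were measured beside these genes, since macrophages and osteoclasts hold many lysosomes. The summed CPM, relative to library totals, of 16 macrophage markers was 18.4 to 26.6 in CD34- and 16.1 to 25.3 in CD34+ libraries. Within pairs the sum was higher in the CD34- library of all 3 tumors (26.1 against 16.1, 26.6 against 25.3 and 18.4 against 16.1 CPM). Of 15 tested macrophage markers 4 were higher in 3 of 3 tumors, near the share of all tested genes (22.8%). The defining macrophage markers were at or near 0, with at most 0.45 CPM for Ptprc, 0.79 CPM for Adgre1 and 1.49 CPM for C1qa, and Csf1r reached 7.94 CPM. For 6 osteoclast markers the sums were 71 to 121 and 67.6 to 104 CPM, higher in the CD34- library of each pair (121 against 104, 88.7 against 67.6 and 71 against 70.3 CPM), nearly all of it from Nfatc1 and Acp5, while Calcr and Ocstamp stayed at or below 0.44 CPM.

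Fibroblast markers summed to 79100 to 95300 CPM in CD34- and 86600 to 119000 CPM in CD34+ libraries, with Pdgfra, Col1a1 and Dcn present in all 6. With the block, where 4.32% of all tested genes passed as higher and 4.25% as lower, 0 of these 8 markers were higher in CD34- CAFs. Lower were 3, namely Dcn (-1.12 ± 0.13, adjusted p = 0.00154), Lum and Fn1. With an estimated correlation 1 of the 3 passed, Dcn (adjusted p = 0.0472), with Lum and Fn1 at an adjusted p of 0.0929 each. Pericyte markers summed to 205 to 243 CPM in CD34- and 86.5 to 194 CPM in CD34+ libraries, so the groups did not overlap. With the block Cspg4 (1.81 ± 0.24), Mcam (2.15 ± 0.28) and Notch3 (1.55 ± 0.24) were higher and Kcnj8 and Abcc9 lower, 3 and 2 of 7 tested markers. With an estimated correlation the 3 higher markers passed and Kcnj8 and Abcc9 did not (adjusted p = 0.089 and 0.143). The defining marker Rgs5 reached 10.7 TMM-scaled CPM and did not pass (adjusted p = 0.0803). Epithelial markers summed to 70.9 to 191 CPM in CD34- and 25.5 to 168 CPM in CD34+ libraries, and in each pair the CD34- library was higher (191 against 168, 176 against 114 and 70.9 against 25.5 CPM). In 3 of 3 tumors 9 of the 11 tested markers were higher in the CD34- library, where 22.8% of all tested genes were. In the blocked fit 0 of 11 passed and 4 were higher at an unadjusted p under 0.05, where 11.6% of all tested genes were. Krt8, Krt14 and Epcam were lowest in positive library 3.

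Endothelial markers summed to 16.8 to 35.1 CPM in CD34- and 57 to 129 CPM in CD34+ libraries, most of it Tek, the angiopoietin receptor, while the defining Cdh5 stayed at or below 3.94 CPM and Pecam1 at or below 12.9 CPM. T cell markers summed to at most 7.29 CPM in any library. The markers of the endothelial list went both ways, with 4 of 8 tested markers above 0 in the blocked fit and a median of 0.64. So did the macrophage list, whose sum hides this. Of 15 tested macrophage markers 7 were above 0 and 8 below 0 in the blocked fit (median -0.10). Without the block 5 were above 0 and 10 below 0 (median -0.57). The summed macrophage, epithelial, pericyte and osteoclast markers were thus higher, and the summed endothelial markers lower, in the CD34- library of all 3 tumors, as the 6 lysosomal genes were higher. Their part in the differences of the lysosomal genes was not tested.

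**Figure D4:**
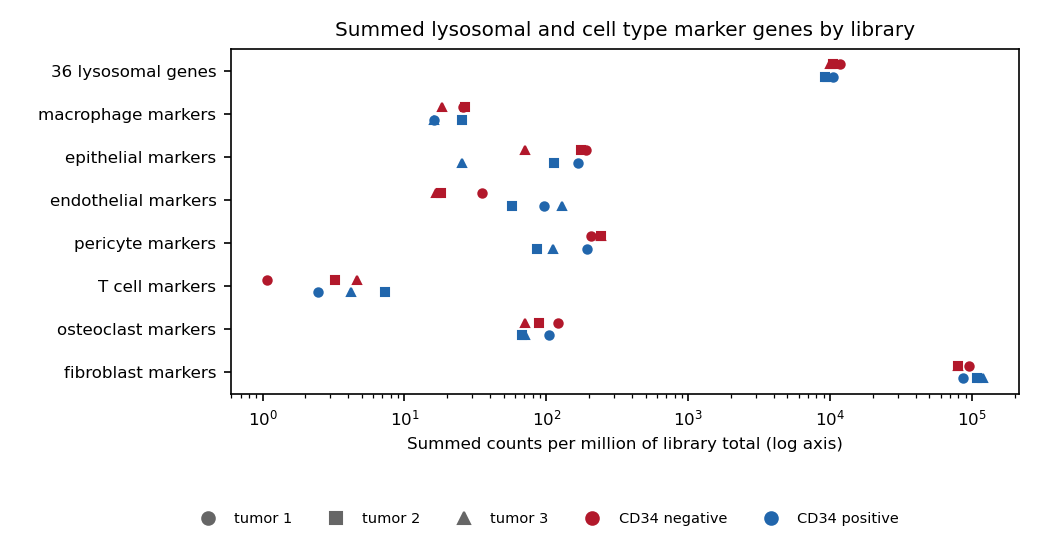
Summed CPM relative to library totals, on a log axis, of the 36 lysosomal genes and of each list of cell type markers in the 6 libraries (color, CD34 fraction; symbol shape, tumor). Macrophage sums overlap between the fractions at 16.1 to 26.6 CPM, while all pericyte sums are higher and all endothelial sums lower in CD34- than in CD34+ libraries.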

How the data were processed

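Gene expression was measured by bulk RNA-seq (TruSeq RNA v2 libraries, Illumina sequencing) in CD34- and CD34+ CAFs from 3 tumors. The authors aligned reads to GRCm38/mm10 and counted them per NCBI gene with featureCounts of Rsubread, and deposited raw counts per library with no normalization. The strand setting and the handling of reads with several matches are not given in the sources used here. In 50-base words of GENCODE transcripts, 26 of the 36 genes shared none with another gene of the table, and 6 shared over 5%.

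Counts were filtered with filterByExpr (minimum count 10), scaled by TMM, and compared with voom and limma (two-sided, Benjamini-Hochberg adjustment over all 14855 tested genes, threshold 0.05), using R 4.3.3, limma 3.58.1, edgeR 4.0.16 and DESeq2 1.42.0. Fold intervals are at 95%. CPM of single genes were scaled by library size and TMM factor, RPKM used the gene length column of the table, and marker sums used library totals. Groups and tumor numbers came from the sample titles. Both fractions came from one tumor, so the tumor pairs the libraries. Deviations from group means correlated within tumors 1, 2 and 3 at 0.373, 0.35 and 0.219 over all tested genes and at 0.03, 0.751 and 0.431 over the 36 genes. The test follows the steps named in the study's methods, which name no block, so the blocked fit is an alternative. Without the block 3 genes were called higher in CD34- CAFs. The paper reports a longer list of genes significantly upregulated in CD34- CAFs, so the unblocked fit does not reproduce that list. For many genes only the blocked value is printed, and in limma without the block 0 members and 0 pathway genes passed. Replicates of a group differed beyond sampling noise, by a chi-square of at least 140 per gene, and each was counted as a sample of its own. Nothing says that the 3 tumors came from separate mice, so p-values cover these tumors only. Without the block they measure the spread between tumors within each group. With the block they measure how far the difference within a tumor varies over the 3 tumors.

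The members and gene lists were chosen with earlier results of these data known. Values of every library are given for Glb1, for members with an adjusted p under 0.05 without or with the block, and for the most abundant member per length of each role. Up to 4 genes per direction are named of each pathway list among those that passed with the block. Of each marker list, up to 3 genes with most counts and the defining markers are named. Tests were also run on simulated data, but the planted changes were larger than those of the lysosomal genes, so effects of their size were not covered. A planned comparison of cathepsin protein sequences was not run. The 24 alternatives covered scaling, filter, annotation, test, block, and each library and tumor left out.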

Additional observations from a re-analysis of the deposited data

How the results depend on the processing

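The number of all tested genes called was 18 without the block. It was 32 with library totals, 9 with edgeR, 161 with sample quality weights, 698 with DESeq2, 703 when the tumor was a random effect, 1273 with the replicate block, 575 with edgeR and the block, and 1733 with DESeq2 and the block. It was 0 to 86 when a library or tumor was removed, and 1134, 851 and 2019 in the blocked fit without tumors 1, 2 and 3. Members called higher numbered 0 without the block, 3 with DESeq2, 6 with the block, 3 with edgeR and the block, 8 with DESeq2 and the block, and 3 with the random effect. The blocked fit without tumors 1, 2 and 3 called 5, 3 and 5 higher and 1, 0 and 0 lower. Of the other pathway genes, 0 were called higher without the block, and 4, 11, 4, 15 and 6 with DESeq2, the block, edgeR and the block, DESeq2 and the block, and the random effect. Those lower numbered 0, then 3, 3, 2, 5 and 2 in the same order, and 1 with quality weights. Removal of a library or tumor gave 0 to 1 higher, and the blocked fit without tumors 1, 2 and 3 gave 11, 3 and 15 higher and 3, 3 and 6 lower. The median of the 36 genes ranged from 0.10 (without positive library 2) to 0.27. Ctsd, Gaa and Tpp1 passed in 8 of 24 alternatives each, in every blocked fit without a tumor and in 0 of 9 unblocked fits with a library or tumor removed. The count of members above 0 was also 27 with DESeq2 size factors and library totals, which moved the median of all genes to -0.04 and -0.05.

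Signs turned for 17 members, each of which passed in 0 of 24 alternatives. With quality weights the log2 fold change was 0.087 for Gusb, 0.11 for Lgmn, 0.0099 for Lamp2, -0.00082 for Manba and -0.0020 for Idua. Without the low-count filter it was 0.0062 for Ids and 0.0075 for Lamp2, and with edgeR 0.00030 for Ids. With a library or tumor removed, the ranges that crossed 0 were -0.016 to 0.36 for Glb1, -0.22 to 0.095 for Gusb, -0.046 to 0.46 for Manba, -0.054 to 0.73 for Neu1, -0.14 to 0.44 for Naglu, -0.22 to 0.52 for Idua, -0.0051 to 0.18 for Ctsb, -0.0049 to 0.40 for Ctsk, -0.26 to 0.16 for Ctso, -3.11 to 0.21 for Ctss, -0.24 to 0.16 for Lgmn, -0.050 to 0.037 for Ids, -0.11 to 0.10 for Arsb, -0.030 to 0.25 for Lipa, -0.14 to 0.16 for Psap, -0.18 to 0.10 for Lamp2 and -0.063 to 0.15 for Cd63. In the blocked fit without a tumor the values of opposite sign were 0.020 for Gusb, -0.055 for Neu1, -0.053 and -0.055 for Idua, -0.00041 for Ctsb, 0.10 for Ctso, 0.0042 for Ctss, 0.11 for Lgmn, 0.037 for Ids, -0.038 for Arsb, -0.015 for Lipa, -0.030 for Psap, 0.0042 and 0.13 for Lamp2 and -0.078 for Cd63. The cause was not tested. With 3 tumors, blocked calls rest on few residual degrees of freedom.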
